A study of Mus musculus with 8 samples.

Results

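The MYC, MAX and MGA network comprises basic helix-loop-helix leucine zipper transcription factors that share MAX or its relative MLX as a partner on DNA. MYC, MYCN and MYCL activate transcription as dimers with MAX at E-box sequences, and the MXD proteins compete for MAX and recruit SIN3 and histone deacetylases to the same sites. MGA pairs with MAX in the Polycomb complex PRC1.6, which in ESCs represses germ-line genes, whereas MLX pairs with MLXIP (MONDOA), which responds to glucose. The mRNA levels of 10 genes of this network (*Myc*, *Mycn*, *Mycl*, *Max*, *Mga*, *Mxd1*, *Mxd3*, *Mxd4*, *Mlx* and *Mlxip*) were analysed. They were chosen by symbol among 50901 genes, and all 10 had an entry.

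RNA-seq was performed on 8 libraries of polyadenylated RNA from E14 mouse ESCs grown in N2B27 with LIF and 2i. There were 4 libraries of ESC + F/H-BAZ2ArWT and 4 of ESC + F/H-BAZ2ArΔTAM, which carry a piggyBac transgene for Flag- and HA-tagged, siRNA-resistant BAZ2A, either wild-type or without its RNA-binding TAM domain. Both groups received siRNA against *Baz2a* and were harvested after 3 days, so the endogenous transcript was targeted in the control group as well. According to the methods of the study, single-cell clones were picked after insertion of the transgene, so that the TAM deletion cannot be told apart from other differences between the lines, and the labels do not state whether the libraries of a line came from separate cultures. The p-values therefore measure the spread between these libraries, which may be technical.

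The libraries held from 7281271 to 7714167 reads on genes in ESC + F/H-BAZ2ArWT and from 6585592 to 8696303 in ESC + F/H-BAZ2ArΔTAM. *Baz2a*, with reads of the transgene and the endogenous gene not separated, had 9.95, 10.3, 10.5 and 11.2 RPKM in ESC + F/H-BAZ2ArWT and 17.0, 18.6, 18.5 and 18.9 RPKM in ESC + F/H-BAZ2ArΔTAM. Among 8 ESC markers, all were above the read filter, 4 were lower and none higher in ESC + F/H-BAZ2ArΔTAM, with a summed level of 364 to 374 RPKM against 296 to 323 RPKM. *Dppa5a* carried most of this sum (278 to 288 against 223 to 244 RPKM), and *Pou5f1*, *Nanog*, *Zfp42* and *Tfcp2l1* were not called. Among 7 markers of 2-cell-like cells, 6 were tested and all 6 were higher, with a sum of 0.301 to 0.38 RPKM against 1.72 to 1.87 RPKM. Of the markers of differentiated cells, 2 primitive endoderm genes were tested (1 higher and 1 lower; summed level of the list 0.408 to 0.423 against 0.213 to 0.26 RPKM), 3 of mesoderm (1 lower; 0.962 to 1.16 against 0.725 to 0.996 RPKM), 2 neural (both lower; 0.504 to 0.633 against 0.257 to 0.302 RPKM) and 3 of trophoblast (none called; 0.293 to 0.331 against 0.288 to 0.46 RPKM). *Lama1*, the lower gene, carried most of the primitive endoderm sum (0.369 to 0.392 against 0.178 to 0.201 RPKM), and *Gata4* was the higher gene. *Nes* carried most of the neural sum (0.406 to 0.521 against 0.212 to 0.246 RPKM). *Foxa2*, *Mesp1*, *Neurog2*, *Olig2*, *Elf5*, *Hand1* and *Gcm1* had at most 3 reads in any library, and no marker was at 0 in all libraries. The part of these cell types in the values of the network genes was not tested. In bulk RNA, fewer cells of a type and less RNA per cell cannot be told apart.

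*Mycn* and *Mycl* mRNA fell and *Max* and *Mxd4* mRNA rose in ESC + F/H-BAZ2ArΔTAM compared with ESC + F/H-BAZ2ArWT, whereas *Myc*, *Mga*, *Mxd1*, *Mxd3*, *Mlx* and *Mlxip* did not pass the test. Thus 4 of 10 network genes (40.0%) were called at an adjusted p under 0.05 in limma, close to the 38.4% of all 12660 genes tested. There were 2 higher genes, against 19.3% of all genes, and 2 lower genes, against 19.1%. In 4 of 10 the values of the conditions did not overlap, as for 37.8% of all genes. *Mycn* was the only network gene that also passed an absolute log2 fold change of 0.58, a threshold that 6.97% of all genes passed. *Mxd4* passed it as well under some other settings, among them limma voom on recovered reads (log2 fold change 0.71, adjusted p = 0.0192). The median log2 fold change was -0.0251 over the 10 genes and -0.00354 over all genes.

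**Figure D1:**
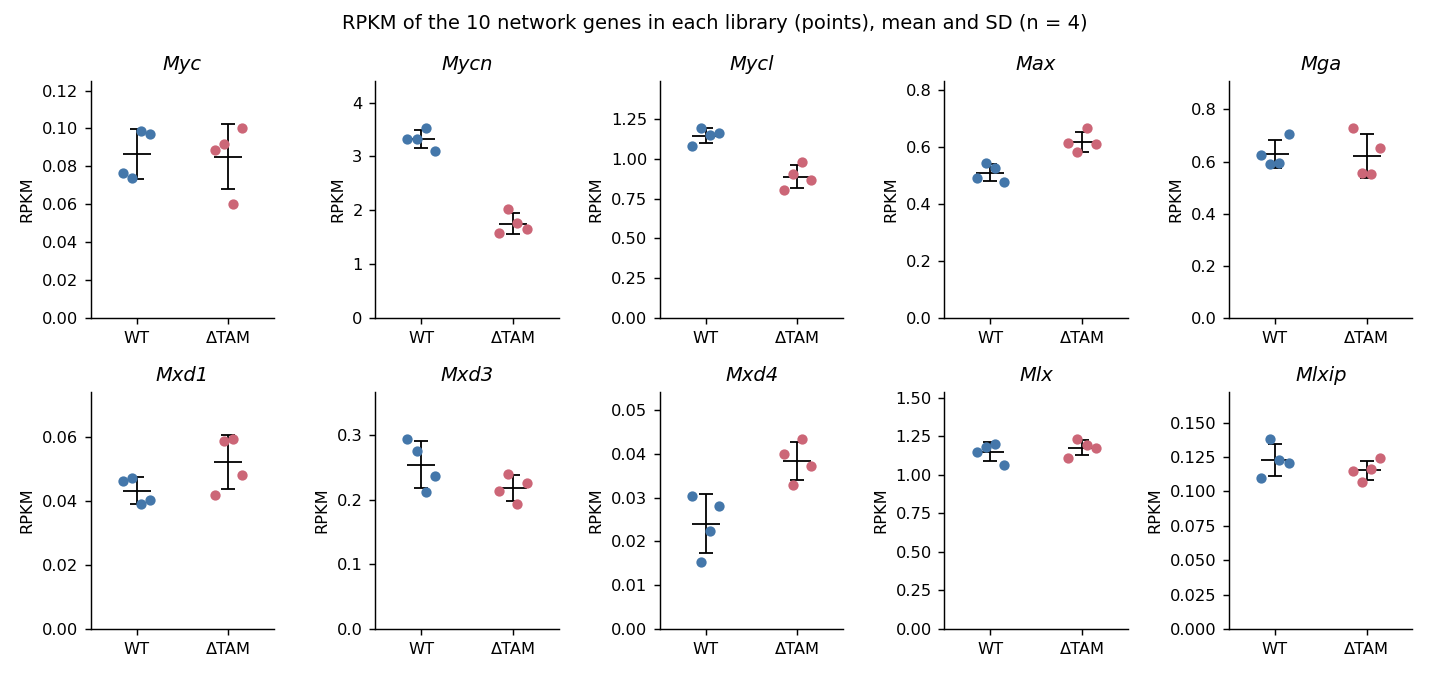
RPKM of each network gene in each library of ESC + F/H-BAZ2ArWT (WT, blue) and ESC + F/H-BAZ2ArΔTAM (ΔTAM, red), with the mean and SD in black (n = 4) and each vertical axis starting at 0. The conditions are separate for *Mycn*, *Mycl*, *Max* and *Mxd4*, and the points overlap for the other 6 genes.

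The promoters of the 4 genes that changed are shown because the network proteins themselves bind the E-box, here searched as CACGTG, which is its own reverse complement. They are RefSeq sequences of GRCm38.p6 from 250 bases before to 50 bases after the annotated start, 5′ to 3′ on the strand of the gene, in lower case with E-boxes in capitals. The *Mycn* promoter lies at chr12:12941787-12942086 (minus strand), that of *Mycl* at chr4:122995681-122995980 (plus strand), that of *Max* at chr12:76962199-76962498 (minus strand) and that of *Mxd4* at chr5:34187661-34187960 (minus strand).
Mycn: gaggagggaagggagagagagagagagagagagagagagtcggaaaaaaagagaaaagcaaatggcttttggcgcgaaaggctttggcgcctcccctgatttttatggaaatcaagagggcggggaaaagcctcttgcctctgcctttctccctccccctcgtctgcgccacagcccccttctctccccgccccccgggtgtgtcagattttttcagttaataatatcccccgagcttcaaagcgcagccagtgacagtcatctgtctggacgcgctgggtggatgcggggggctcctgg
Mycl: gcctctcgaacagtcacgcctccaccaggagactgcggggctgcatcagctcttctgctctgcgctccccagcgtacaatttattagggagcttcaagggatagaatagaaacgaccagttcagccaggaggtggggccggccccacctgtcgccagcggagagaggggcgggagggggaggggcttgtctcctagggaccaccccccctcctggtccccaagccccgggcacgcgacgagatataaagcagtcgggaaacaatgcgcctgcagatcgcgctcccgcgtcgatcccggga
Max: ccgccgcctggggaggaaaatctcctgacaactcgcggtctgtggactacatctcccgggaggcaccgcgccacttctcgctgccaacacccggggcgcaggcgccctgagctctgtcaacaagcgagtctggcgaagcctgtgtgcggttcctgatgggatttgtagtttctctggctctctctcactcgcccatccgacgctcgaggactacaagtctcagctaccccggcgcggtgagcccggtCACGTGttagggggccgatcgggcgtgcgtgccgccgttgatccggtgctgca
Mxd4: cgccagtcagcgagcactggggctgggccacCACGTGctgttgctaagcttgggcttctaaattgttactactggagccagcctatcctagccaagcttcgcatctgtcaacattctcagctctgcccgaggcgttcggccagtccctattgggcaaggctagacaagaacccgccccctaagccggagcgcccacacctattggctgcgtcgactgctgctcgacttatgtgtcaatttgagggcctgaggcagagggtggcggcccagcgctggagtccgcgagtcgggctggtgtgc

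The promoters of *Max* and *Mxd4*, the genes with higher mRNA, each held 1 E-box, beginning at position -3 and at position -219 from the start site. Those of *Mycn* and *Mycl*, the genes with lower mRNA, held none in this window. Of the network genes, 9 had a promoter entry and *Myc* had none. Among these 9, 3 held an E-box, with *Mlx*, which did not pass the test, having its own at position -40. An E-box was present in 2349 of 32851 promoters of the same length (7.15%). The E2F motif GCGGGAA, searched on both strands, was found in the promoter of *Mxd3* alone (position -136) and in 4.6% of all promoters. These matches describe the sequence and say nothing of binding in these cells.

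Among the MYC genes, *Mycn* (chr12:12936093-12941914, minus strand), which encodes the MYC protein most abundant as mRNA in these libraries, had 3.32, 3.32, 3.52 and 3.11 RPKM in the 4 libraries of ESC + F/H-BAZ2ArWT. Its level in ESC + F/H-BAZ2ArΔTAM was 1.59, 2.02, 1.76 and 1.65 RPKM. Every ΔTAM library was thus below every WT library. The mean was 3.32 ± 0.169 RPKM (SD, n = 4) against 1.75 ± 0.191 RPKM (SD, n = 4), which is 1.89-fold lower. Folds are ratios of mean RPKM, whereas log2 fold changes, unless said to be from voom, are differences of mean log2(RPKM + 0.01). On this log2 scale, the change was -0.92 (95% interval -1.09 to -0.75, standard error, SE, 0.0739; limma adjusted p = 5.0e-05). The values rest on 933 to 998 reads per library in ESC + F/H-BAZ2ArWT and 418 to 557 in ESC + F/H-BAZ2ArΔTAM.

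*Mycl* (chr4:122995652-123002485, plus strand), which encodes L-MYC, changed in the same direction with a smaller fold. It had 1.08, 1.19, 1.15 and 1.16 RPKM in ESC + F/H-BAZ2ArWT. The values were 0.803, 0.905, 0.977 and 0.867 RPKM in ESC + F/H-BAZ2ArΔTAM. The groups did not overlap, and the mean of 0.888 ± 0.073 RPKM (SD, n = 4) was 1.29-fold below that of 1.15 ± 0.0489 RPKM (SD, n = 4). The log2 fold change was -0.37 (95% interval -0.5 to -0.23, SE 0.061; limma adjusted p = 0.00197).

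*Myc* (chr15:61985391-61990374, plus strand), the proto-oncogene that gives the family its name, was read 16 to 29 times per library. It had 0.0767, 0.074, 0.0989 and 0.0972 RPKM in ESC + F/H-BAZ2ArWT. The ΔTAM libraries had 0.0888, 0.0916, 0.0602 and 0.1 RPKM. The groups overlapped throughout, and the lowest and the highest library were both of ESC + F/H-BAZ2ArΔTAM. The log2 fold change was -0.033 (95% interval -0.38 to 0.31, SE 0.153; limma adjusted p = 0.884), and it was above 0 without WT replicate 3 or 4 or ΔTAM replicate 3. The coefficient of variation between libraries, 15.2% and 20.4% in the 2 conditions, was below the 21.4% and 21.7% that counting alone gives, so that a change within this interval was not detectable at this depth.

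*Max* (chr12:76937269-76962201, minus strand), the obligate partner of the MYC, MXD and MGA proteins, changed in the opposite direction to *Mycn*. It had 0.491, 0.544, 0.528 and 0.478 RPKM in ESC + F/H-BAZ2ArWT. Its level in ESC + F/H-BAZ2ArΔTAM was 0.613, 0.581, 0.665 and 0.612 RPKM. Every ΔTAM library was above every WT library, by 1.21-fold in the mean (0.51 ± 0.0308 against 0.618 ± 0.0348 RPKM, SD, n = 4). The log2 fold change was 0.27 (95% interval 0.14 to 0.4, SE 0.0568; limma adjusted p = 0.00595).

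*Mga* (chr2:119897228-119969581, plus strand), which encodes the PRC1.6 subunit that binds DNA with MAX, did not pass the test. It had 0.624, 0.589, 0.593 and 0.705 RPKM in ESC + F/H-BAZ2ArWT. The values were 0.727, 0.556, 0.553 and 0.654 RPKM in ESC + F/H-BAZ2ArΔTAM. High and low libraries occurred in both conditions. With 1763 to 2750 reads per library, *Mga* had the most reads of the 10 genes, and its coefficient of variation of 8.55% and 13.5% exceeded the 2.09% and 2.11% that counting alone gives. The log2 fold change was -0.017 (95% interval -0.24 to 0.2, SE 0.0973; limma adjusted p = 0.904), so that the precision here was set by the spread between libraries and not by depth. It was above 0 without WT replicate 4 or ΔTAM replicate 2 or 3.

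Of the MXD repressors, only *Mxd4* passed the test, which had the lowest level of the 10 genes per exon length. *Mxd4* (chr5:34173883-34187720, minus strand) had 0.0305, 0.0154, 0.0223 and 0.028 RPKM in ESC + F/H-BAZ2ArWT. The ΔTAM libraries had 0.04, 0.033, 0.0434 and 0.0373 RPKM. The groups did not overlap, but the gap between WT replicate 1 and ΔTAM replicate 2 was narrow, and the values rest on 11 to 21 and 20 to 32 reads per library. The mean was 1.6-fold higher in ESC + F/H-BAZ2ArΔTAM (0.0241 ± 0.00671 against 0.0384 ± 0.00439 RPKM, SD, n = 4), with a log2 fold change of 0.53 (95% interval 0.2 to 0.85, SE 0.143; limma adjusted p = 0.0197). The call was lost without ΔTAM replicate 3 (adjusted p = 0.0529) and when no filter on low reads was applied (adjusted p = 0.0922). Over all settings run, its change lay between 0.0201 (a pseudocount of 1 RPKM) and 0.71 (voom).

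*Mxd1* and *Mxd3* had opposite signs, and neither passed the test. *Mxd1* (chr6:86647042-86669161, minus strand), which encodes MAD1, had 0.0464, 0.0474, 0.039 and 0.0403 RPKM in ESC + F/H-BAZ2ArWT. Its level in ESC + F/H-BAZ2ArΔTAM was 0.042, 0.0588, 0.0594 and 0.0483 RPKM. ΔTAM replicate 1 lay within the range of the WT libraries and the other 3 above it. The log2 fold change of *Mxd1* was 0.21 (95% interval -0.0291 to 0.46, SE 0.107; limma adjusted p = 0.146), and without ΔTAM replicate 1 it was 0.3 (adjusted p = 0.0428). *Mxd3* (chr13:55325168-55329823, minus strand), an MXD gene expressed in dividing cells, had 0.294, 0.275, 0.212 and 0.237 RPKM in ESC + F/H-BAZ2ArWT. The values were 0.214, 0.24, 0.193 and 0.226 RPKM in ESC + F/H-BAZ2ArΔTAM. The highest 2 values were of WT libraries, with overlap below them. The log2 fold change of *Mxd3* was -0.21 (95% interval -0.45 to 0.0384, SE 0.107; limma adjusted p = 0.162). Exons of *Mxd3* overlap with exons of *Prelid1* on the other strand. *Prelid1* had 1007 to 1363 reads against 45 to 68 for *Mxd3*. The sources used here do not state whether strand was used in counting.

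*Mlx* and *Mlxip* did not pass the test. *Mlx* (chr11:101087277-101092207, plus strand), the partner shared by MLXIP and MLXIPL, had 1.15, 1.18, 1.2 and 1.06 RPKM in ESC + F/H-BAZ2ArWT. The ΔTAM libraries had 1.11, 1.23, 1.19 and 1.17 RPKM. The groups overlapped, with a log2 fold change of 0.041 and an interval from -0.0688 to 0.15 (adjusted p = 0.529 from limma). Exons of *Mlx* overlap with exons of *Psmc3ip* on the other strand, which had 112 to 164 reads against 248 to 335 for *Mlx*. *Mlxip* (chr5:123394798-123457932, plus strand), which encodes MONDOA, had 0.11, 0.138, 0.123 and 0.121 RPKM in ESC + F/H-BAZ2ArWT. Its level in ESC + F/H-BAZ2ArΔTAM was 0.115, 0.107, 0.116 and 0.124 RPKM. Its groups overlapped as well, with a log2 fold change of -0.08 and an interval from -0.25 to 0.0927 (adjusted p = 0.435 from limma). For both genes the intervals leave out a change as large as that of *Mycn*.

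The remaining dimer partners of MAX and MLX were measured in the same way. *Mnt*, a widely expressed repressor that binds MAX, had 0.488, 0.437, 0.429 and 0.382 RPKM in ESC + F/H-BAZ2ArWT and 0.53, 0.52, 0.549 and 0.516 RPKM in ESC + F/H-BAZ2ArΔTAM. Its groups did not overlap, and the log2 fold change was 0.28 (SE 0.0682; limma adjusted p = 0.0112), beside 0.27 for *Max*. *Mlxipl*, which encodes the glucose-responsive factor ChREBP, had 0.0236, 0.0248, 0.0191 and 0.0248 RPKM in ESC + F/H-BAZ2ArWT and 0.0342, 0.0344, 0.0395 and 0.033 RPKM in ESC + F/H-BAZ2ArΔTAM, from 45 to 102 reads per library. This was a rise of 1.53-fold without overlap (log2 fold change 0.45, adjusted p = 0.00217 from limma). *Mxi1*, which encodes the MXD-related repressor MXI1, had 0.0896, 0.0859, 0.078 and 0.0887 RPKM against 0.0999, 0.105, 0.104 and 0.0883 RPKM. It overlapped through ΔTAM replicate 4 and missed the threshold (log2 fold change 0.19, adjusted p = 0.0645 from limma; 0.0237 with limma voom on recovered reads).

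**Figure D2:**
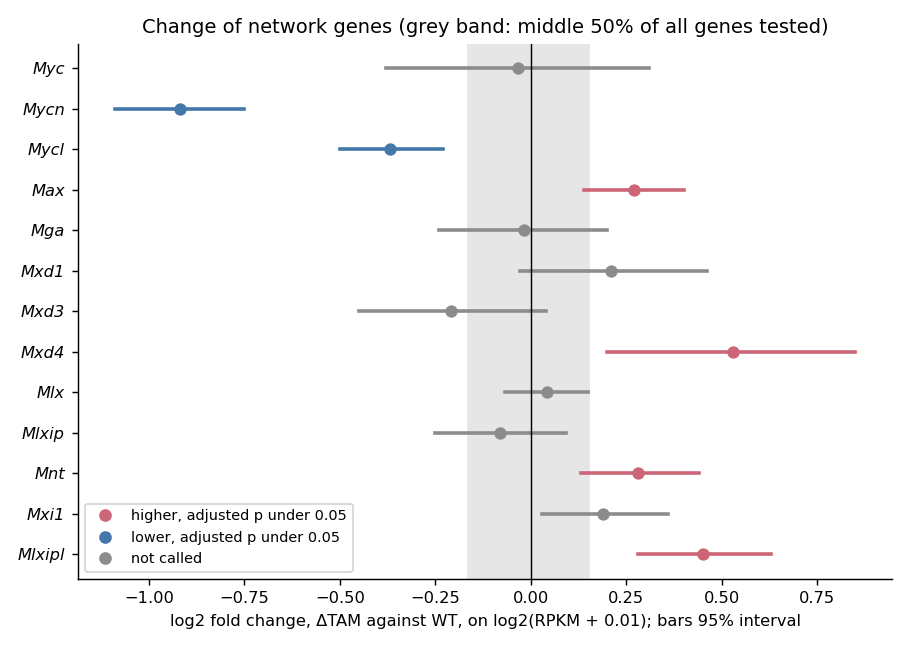
Log2 fold change of ESC + F/H-BAZ2ArΔTAM against ESC + F/H-BAZ2ArWT (horizontal axis) with its 95% interval for the 10 network genes and *Mnt*, *Mxi1* and *Mlxipl*, coloured by direction where the adjusted p was under 0.05. *Mycn* at -0.92 lies farthest from 0, and the grey band spans the middle 50% of all genes tested, from -0.165 to 0.152.

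Because the deposited RPKM are per kilobase of genomic span, levels were compared between genes after replacing the span by the exon length, given here as exon RPKM. In ESC + F/H-BAZ2ArWT, *Mycn* was the highest, with 5.86 ± 0.299 exon RPKM (SD, n = 4), followed by *Max* (3.53 ± 0.214), *Mga* (2.96 ± 0.253), *Mlx* (2.82 ± 0.151) and *Mycl* (1.94 ± 0.0828). *Mlxip* (0.933 ± 0.0869), *Mxd3* (0.5 ± 0.0727), *Myc* (0.159 ± 0.0241), *Mxd1* (0.135 ± 0.0133) and *Mxd4* (0.0392 ± 0.0109) came lower on the same scale. Of neighbours in this order, *Max* and *Mga*, *Mga* and *Mlx*, and *Myc* and *Mxd1* overlapped between libraries. In ESC + F/H-BAZ2ArΔTAM, *Max* was the highest, with 4.28 ± 0.241 exon RPKM (SD, n = 4), and *Mycn* (3.1 ± 0.337) came next, overlapping with *Mga* (2.94 ± 0.397), which overlapped with *Mlx* (2.9 ± 0.123). *Mycl* (1.5 ± 0.124), *Mlxip* (0.877 ± 0.0528) and *Mxd3* (0.429 ± 0.0389) followed, then *Mxd1* (0.163 ± 0.0265) and *Myc* (0.156 ± 0.0318), which overlapped, and *Mxd4* (0.0627 ± 0.00715). With the length of the longest transcript in place of all exons, *Mycn* (7.22 ± 0.368) and *Max* (6.55 ± 0.396) overlapped in ESC + F/H-BAZ2ArWT, and *Max* (7.93 ± 0.446) was above *Mycn* (3.82 ± 0.416) in ESC + F/H-BAZ2ArΔTAM.

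**Figure D3:**
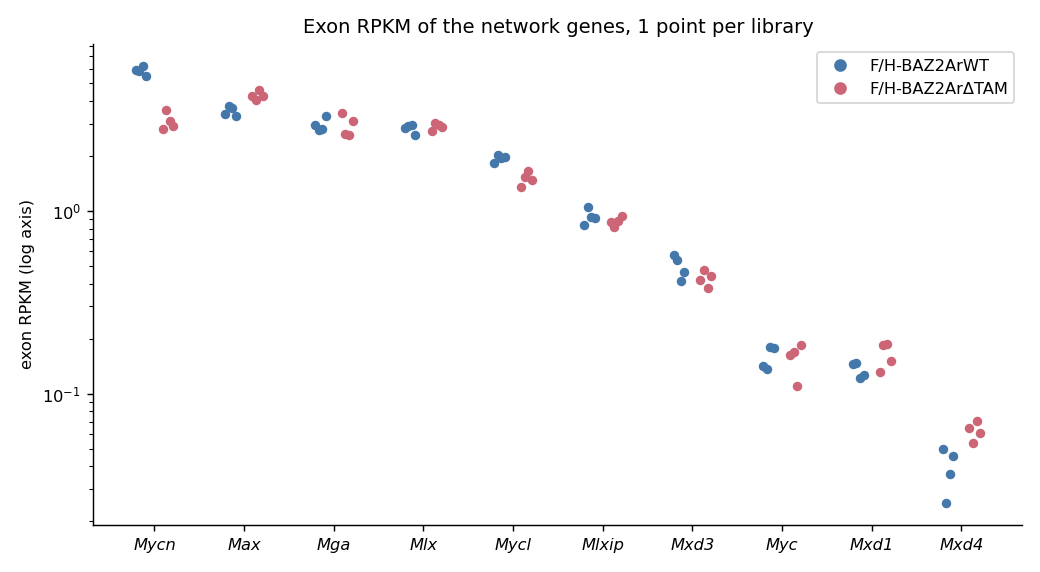
Exon RPKM (vertical log axis) of the 10 network genes in each library of ESC + F/H-BAZ2ArWT (blue) and ESC + F/H-BAZ2ArΔTAM (red), ordered by the WT mean. *Mycn* moves from above *Max* in the WT libraries (5.86 against 3.53) to below it in the ΔTAM libraries (3.1 against 4.28).

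The makeup of the MYC mRNA pool is given as a description without a test, since it follows from the levels above. *Mycn*, *Mycl* and *Myc* summed to 7.95 ± 0.305 exon RPKM (SD, n = 4) in ESC + F/H-BAZ2ArWT and 4.76 ± 0.408 (SD, n = 4) in ESC + F/H-BAZ2ArΔTAM. *Mycn* made up 74.9%, 73.1%, 74.5% and 71.9% of this sum in the WT libraries and 64.8%, 67.7%, 63.8% and 63.8% in the ΔTAM libraries. The share of *Mycl* was 24.4% ± 1.27 (SD, n = 4) and 31.6% ± 2.0 (SD, n = 4), so that *Mycl*, which fell in level, took a larger share of the pool. *Myc* took 2.0% ± 0.305 and 3.31% ± 0.781 (SD, n = 4), with overlap. The ratio of the summed MYC genes to *Max* was 2.3, 2.13, 2.28 and 2.3 in the WT libraries and 1.02, 1.31, 1.06 and 1.08 in the ΔTAM libraries, with no overlap. In contrast, the ratio of *Mnt* to *Max* was 0.394 ± 0.0438 and 0.396 ± 0.0136 (SD, n = 4), and *Mxd1*, *Mxd3* and *Mxd4* together had 0.675 ± 0.0867 and 0.655 ± 0.0401 exon RPKM (SD, n = 4), both with overlap. *Mxd3* made up most of this sum, which does not include *Mxi1* (0.819 ± 0.0508 and 0.95 ± 0.0732 exon RPKM, SD, n = 4). Relative to the MYC genes, *Mxd1*, *Mxd3* and *Mxd4* amounted to 0.0851 ± 0.0125 and 0.138 ± 0.0063 (SD, n = 4), without overlap. With the length of the longest transcript, an alternative chosen after seeing the data, the ratio of the summed MYC genes to *Max* was 1.47 ± 0.056 in ESC + F/H-BAZ2ArWT and 0.725 ± 0.0858 in ESC + F/H-BAZ2ArΔTAM (SD, n = 4), again without overlap, and that of *Mnt* to *Max* was 0.214 ± 0.0238 and 0.215 ± 0.00742 (SD, n = 4). Whether the summed MYC mRNA exceeds *Max* mRNA in ESC + F/H-BAZ2ArΔTAM thus depends on the length used.

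**Figure D4:**
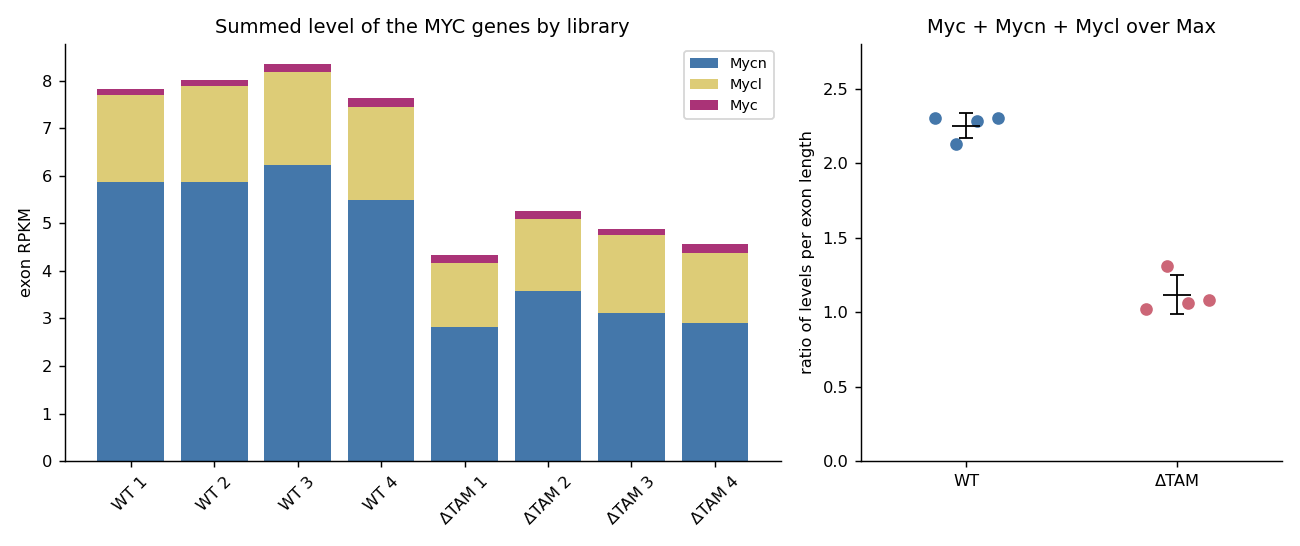
Left, summed exon RPKM of *Mycn*, *Mycl* and *Myc* in each library as stacked bars from 0; right, their ratio to *Max* in each library with the mean and SD (n = 4). The sum lies between 7.63 and 8.35 in the WT libraries and between 4.33 and 5.27 in the ΔTAM libraries.

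Genes that act with or downstream of the network were then counted in lists of known biology. Of 10 other genes in or around the network, 5 were higher (*Mycbp*, *Mlxipl*, *Usf1*, *Mnt* and *Tfap4*) and 1 was lower (*Bmyc*). This is 60.0% called against 38.4% of all genes (19.3% higher and 19.1% lower), with a median log2 fold change of 0.187. The list is wider than the dimer partners of MAX and MLX, so its share is not one for the network alone. *Mycbp*, which encodes a protein that binds the amino terminus of MYC, rose from 0.265 ± 0.0311 to 0.445 ± 0.0163 RPKM (SD, n = 4; log2 fold change 0.73, adjusted p = 1.8e-04 from limma). *Usf1*, an E-box-binding factor outside the MAX dimers, had a log2 fold change of 0.18 (adjusted p = 0.0105). *Bmyc*, a MYC relative without the DNA-binding domain that is named here after its value was seen, had a log2 fold change of -0.34 (adjusted p = 0.0192) from 21 to 34 reads per library, and it was not called with limma voom on recovered reads (adjusted p = 0.171).

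Of 15 partners of MGA in PRC1.6, 5 were higher (*Hdac1*, *Cbx1*, *Ehmt2*, *Wdr5* and *Cbx3*), 3 were lower (*E2f6*, *Hdac2* and *Ehmt1*) and none passed a log2 fold change of 0.58. This is 53.3% called, against 38.4% of all genes, with a median of 0.09. *E2f6*, which brings the complex to E2F sites, was at 0.174 ± 0.00879 RPKM against 0.155 ± 0.00206 RPKM (SD, n = 4; log2 fold change -0.16, adjusted p = 0.0375 from limma), a call lost in 9 of 20 other settings, 7 of which left out 1 library. *L3mbtl2*, a reader protein of the complex, had a log2 fold change of 0.11 (adjusted p = 0.0682) and *Pcgf6*, its defining PCGF subunit, one of -0.017 (95% interval -0.0984 to 0.0634, adjusted p = 0.728). *Hdac1*, a histone deacetylase, rose with a log2 fold change of 0.32 (adjusted p = 2.6e-04), *Cbx1*, which encodes HP1 beta, with 0.2 (adjusted p = 4.4e-04) and *Ehmt2*, which encodes the histone methyltransferase G9a, with 0.17 (adjusted p = 0.0153). The number called fell from 8 to 4 without WT replicate 1 or 4 or ΔTAM replicate 1, 2 or 3, and to 5 without WT replicate 3 or ΔTAM replicate 4.

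Of 16 genes of the SIN3 corepressor, which the MXD proteins and MNT recruit, 6 were higher and 2 were lower (8 of 16 called, against 38.4% of all genes), with a median of 0.066. These counts share *Hdac1* and *Hdac2* with the PRC1.6 list. *Suds3*, a subunit of SIN3, rose from 0.647 ± 0.0167 to 0.851 ± 0.0659 RPKM (SD, n = 4; log2 fold change 0.39, adjusted p = 1.0e-03 from limma). *Rbbp7*, a histone-binding subunit, fell from 2.77 ± 0.0497 to 2.36 ± 0.021 RPKM (SD, n = 4; log2 fold change -0.23, adjusted p = 2.6e-04).

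Of 24 cofactors of MYC and regulators of its stability, 9 were higher and 2 were lower (45.8% called, against 38.4% of all genes), with a median of 0.048. *Wdr5*, called higher, is counted here and in the PRC1.6 list. Both lower genes encode deubiquitinases that stabilise MYC. *Usp28* was at 0.619 ± 0.011 against 0.493 ± 0.0122 RPKM (SD, n = 4; log2 fold change -0.32, adjusted p = 2.0e-04 from limma) and *Usp36* at 0.475 ± 0.0115 against 0.377 ± 0.0204 RPKM (SD, n = 4; log2 fold change -0.33, adjusted p = 9.6e-04). *Ccnt1*, the cyclin of the elongation kinase that MYC recruits, rose with a log2 fold change of 0.3 (adjusted p = 1.0e-03). The number called fell from 11 to 6 without WT replicate 2 or ΔTAM replicate 2 and to 5 without ΔTAM replicate 4.

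Of 40 known MYC target genes, 11 were higher and 9 were lower (20 of 40 called, against 38.4% of all genes), with a median of 0.032. The list thus split between directions. *Shmt2*, a mitochondrial enzyme of serine catabolism, fell from 11.7 ± 0.422 to 8.7 ± 0.451 RPKM (SD, n = 4; log2 fold change -0.42, adjusted p = 1.6e-04 from limma). *Tert*, the catalytic subunit of telomerase, fell from 0.321 ± 0.0238 to 0.217 ± 0.0202 RPKM (SD, n = 4; log2 fold change -0.55, adjusted p = 8.8e-04). *Tfrc*, the transferrin receptor, rose from 2.07 ± 0.0326 to 3.48 ± 0.0607 RPKM (SD, n = 4; log2 fold change 0.75, adjusted p = 1.2e-06). Named here after their calls were seen, the higher genes also included *Odc1*, *Cad* and *Apex1* and the lower ones *Srm*, *Ldha*, *Gnl3* and *Ccnd2*. The number called fell from 20 to 13 without ΔTAM replicate 4.

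Of 20 germ-line genes known to be repressed by MGA, MAX and PRC1.6, 15 passed the read filter, 2 were higher and 2 were lower (26.7% called, against 38.4% of all genes), and 11 did not pass the test, with a median of -0.037. *Stra8*, required for entry into meiosis, had 0.0975, 0.12, 0.115 and 0.123 RPKM in ESC + F/H-BAZ2ArWT and 0.743, 0.639, 0.703 and 0.639 RPKM in ESC + F/H-BAZ2ArΔTAM, which is 5.98-fold higher (log2 fold change 2.48, SE 0.0814; limma adjusted p = 8.7e-07). *Dazl*, a germ-cell RNA-binding protein, rose from 0.824 ± 0.0621 to 1.35 ± 0.0367 RPKM (SD, n = 4; log2 fold change 0.71, adjusted p = 4.2e-05). *Stag3*, a subunit of meiotic cohesin, fell from 0.607 ± 0.0242 to 0.458 ± 0.0343 RPKM (SD, n = 4; log2 fold change -0.4, adjusted p = 0.00103), and *Sycp3*, a protein of the synaptonemal complex named here after its value was seen, had a log2 fold change of -0.77 (adjusted p = 0.00416).

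Of 14 genes of the glucose response of MLX and MONDOA, 12 were tested, 3 were higher and 2 were lower (41.7% called, close to the 38.4% of all genes), with a median of -0.037. *Acly*, which makes cytosolic acetyl-CoA, rose from 1.96 ± 0.0476 to 2.79 ± 0.0822 RPKM (SD, n = 4; log2 fold change 0.51, adjusted p = 2.0e-05 from limma). *Fasn*, the fatty acid synthase, rose with a log2 fold change of 0.31 (adjusted p = 6.9e-05). *Arrdc4*, an arrestin that lowers glucose uptake, fell from 0.518 ± 0.0279 to 0.366 ± 0.0159 RPKM (SD, n = 4; log2 fold change -0.49, adjusted p = 1.9e-04). *Txnip*, its relative and the best known target of MONDOA, named here after its value was seen, had a log2 fold change of -0.26 (adjusted p = 2.9e-04), whereas *Arrdc3*, another arrestin gene of this kind and likewise named afterwards, had 0.37 (adjusted p = 0.00516).

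**Figure D5:**
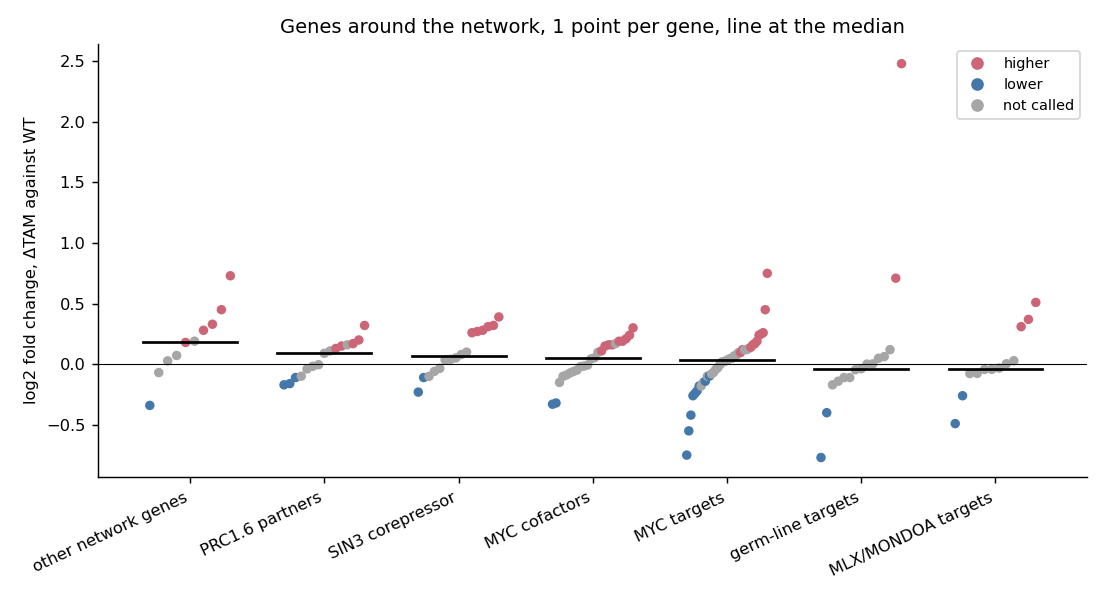
Log2 fold change of ESC + F/H-BAZ2ArΔTAM against ESC + F/H-BAZ2ArWT (vertical axis) for each tested gene of the 7 lists, red where called higher, blue where called lower and grey otherwise, with the median of each list as a line. The medians lie between -0.037 and 0.187, and *Stra8* at 2.48 stands above all other genes of the lists.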

How the data were processed

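RNA was sequenced from 8 libraries of E14 mouse ESCs, grouped by their labels. The authors trimmed reads with Trimmomatic (version 0.36 in the submitters' processing notes), mapped them with STAR to mm10 and deposited RPKM per library without pooling replicates. Whether counting used strand, and how multi-mapping reads were treated, are not given in the sources used here. The RPKM were whole multiples of a step per library after multiplication by the genomic span of the gene, within 0.1 read for 99.63% of values, so reads were recovered. RPKM are thus per kilobase of span, and levels between genes were compared per kilobase of exon of GENCODE vM21. Of 51288 entries, 387 repeats of a symbol were set aside.

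limma 3.58.1 in R 4.3.3 (lmFit, eBayes with trend, no covariates, two-sided) was run on log2(RPKM + 0.01) for 12660 genes with a mean of at least 10 recovered reads. Calls needed an adjusted p (Benjamini-Hochberg over all genes tested) under 0.05. The pseudocount is worth 11.3 reads at the median span, so fold changes of genes with few reads are understated. The procedure was tested on simulated reads with a log2 change of 1 in 193 genes, of which limma recovered 181, with 8 false calls. Spread beyond counting was simulated as equal for all genes. Smaller changes and larger spreads were not simulated. Read depth was 6585592 to 8696303 reads on genes per library, and counting errors cover sampling only. The network genes and lists were chosen with earlier results of these data known. Genes named are the 10 network genes, *Mnt*, *Mxi1*, *Mlxipl*, *E2f6*, *L3mbtl2*, *Pcgf6*, *Baz2a* and, per list, the 3 called genes without overlap that had the smallest adjusted p. Other genes were named as called members of a list or after their values were seen. Alternatives were other pseudocounts and filters, limma voom on recovered reads, median-ratio or quantile scaling, eBayes without trend or robust, the replicate block, the longest transcript as length and each library left out. *Cip2a*, *Myclp1* and *Dub1*, a listed marker of 2-cell-like cells, were not matched by symbol.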

Additional observations from a re-analysis of the deposited data

Results flagged for a closer look

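In 3 of 72 groups of 4 libraries among the genes named, 1 library stood far from the other 3, where chance gives about 1 in 20. These were *Fasn* in WT replicate 4 (7.41 RPKM), *Rbbp7* in WT replicate 1 (2.84 RPKM) and *Usp36* in WT replicate 4 (0.458 RPKM). None was a library of *Myc*, *Mycn*, *Mycl*, *Max*, *Mga*, *Mxd1*, *Mxd3*, *Mxd4*, *Mlx* or *Mlxip*.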

How the results depend on the processing

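The falls of *Mycn* (log2 fold change -0.99 to -0.65) and *Mycl* (-0.41 to -0.18) and the rise of *Max* (0.0995 to 0.3) passed the test under all alternatives run, the smallest changes being at a pseudocount of 1 RPKM. Limma called 3689 genes without a filter, 3245 at a minimum mean of 0.1 RPKM and 5528 with voom on recovered reads, against 4858. Past a log2 fold change of 0.58 in size, the higher and lower genes were 417 and 466. They were 30 and 13 at a pseudocount of 1 RPKM, 179 and 110 at 0.1 RPKM and 572 and 716 at 0.001 RPKM. With voom they were 621 and 789. They were 277 and 217 at a minimum mean of 0.1 RPKM, and 152 and 159 at a minimum mean of 100 reads. Of the network genes, 3 were called without a filter. The PRC1.6 list had 5 genes called without a filter, and the list of MYC cofactors had 6. With the replicate block, 4408 genes, 4 network genes and 5 PRC1.6 genes were called. Correlations of same-numbered libraries were 0.0401 to 0.0911, all positive, and those of differently numbered libraries were -0.136 to 0.0944. The numbers were not taken as pairs, and these values do not settle whether they are. With each library left out in turn, 4042 to 4560 genes and 3 to 5 network genes (3 without ΔTAM replicate 3, 5 without ΔTAM replicate 1) were called. In the same fits, the lists had 5 to 7 other genes in or around the network, 4 to 6 of PRC1.6 and 7 of SIN3 called. They also had 5 to 9 MYC cofactors, 13 to 19 MYC targets, 4 germ-line genes and 5 glucose-response genes called. With 1 library left out, the log2 fold change of *Myc* ranged from -0.11 to 0.11 and that of *Mga* from -0.0941 to 0.0385. The sign reversed for *Myc* without WT replicate 3 (0.0278) or 4 (0.0203) or ΔTAM replicate 3 (0.11), and for *Mga* without WT replicate 4 (0.0385) or ΔTAM replicate 2 (0.0327) or 3 (0.0358). With the longest transcript as length, exon RPKM averaged over both conditions was 0.183 for *Myc* (0.158), 5.52 for *Mycn* (4.48), 1.98 for *Mycl* (1.72), 7.24 for *Max* (3.91), 3.25 for *Mga* (2.95), 0.226 for *Mxd1* (0.149), 0.632 for *Mxd3* (0.465), 0.0934 for *Mxd4* (0.051), 2.91 for *Mlx* (2.86) and 1.03 for *Mlxip* (0.905), with the value for all exons in parentheses. The causes of the changes in calls and signs were not tested. *Myc* and *Mxd4* had the fewest reads of the network genes, 11 to 32 per library, for which counting alone gives a coefficient of variation of 19.3% to 24.4%.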
